A study of Mus musculus with 12 samples.

Results

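Cells of the mouse mammary gland were compared between 3 libraries from animals fed a high dose of polybrominated diphenyl ethers (PBDEs) and 3 libraries from animals fed the matched diet without PBDE. These 6 libraries were taken from a series of 12, each a single library of 1 treatment group. Members were cells, chosen by fixed limits. A barcode counted as a cell with 500 or more genes, 1000 or more unique molecular identifiers (UMIs) and no more than 5% of its UMIs from mitochondrial genes, which left 7670 cells in the high PBDE libraries and 11862 in the controls, of 46257 in the series. Immune cells had at least 1 UMI of Ptprc, the leukocyte antigen CD45, and none of Pdgfra or Epcam, which gave 786 cells with high PBDE and 1768 in the controls, of 5692. Fibroblasts had at least 20 UMIs of Col1a1, Col1a2 and Col3a1 together and none of Ptprc, Pecam1 or Epcam, which gave 6009 cells with high PBDE and 8346 in the controls, of 33709. UMIs were summed per library over each class and are given as CPM, the UMI count of a gene scaled to a common total for each sum.

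All 6 groups were female C57BL/6J mice aged 43 weeks that had received 4-vinylcyclohexene diepoxide (VCD), a toxicant of ovarian follicles, at 160 mg/kg/day by injection for 15 days, so that the controls carried the VCD treatment too. VCD_High_PBDE, VCD_High_PBDE_E2 and VCD_High_PBDE_E2_P4 ate PBDE-47, PBDE-100 and PBDE-153 in their food for 1 week, at daily doses of 1, 0.056 and 0.126 mg/kg respectively. VCD_Vehicle, VCD_E2 and VCD_E2_P4 ate a diet with DMSO alone. For all 6 groups the start of the diet is given as 100 days after VCD onset, while the high PBDE dose lasted 1 week. Within each dose the 3 libraries differed in hormone, with sesame oil as the vehicle, estradiol (E2) at 1 µg per animal per day, or E2 with progesterone (P4) at 1 mg per animal per day, each injected for the last 1 week. A pair of further VCD libraries without a PBDE dose served as a check and took no part in the test: VCD_E2_ICI, which received E2 and a single 5 mg injection of the estrogen receptor antagonist ICI, and VCD_Vehicle_NormEnv, a second vehicle group whose label does not explain NormEnv. Intact, which received neither VCD nor PBDE, took no part in any comparison. The low PBDE groups received 0.05, 0.0028 and 0.0063 mg/kg/day of the same congeners for 20 weeks, so dose and duration both differ. They took no part in the main test, where their values are only set beside the others. They did enter the alternative fits with 9 libraries and with the library tag, described below, as a term. In those fits the low dose had a term of its own. The number of animals behind a library is not given in the sources used here.

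PBDEs are brominated flame retardants that persist in fat. Members of this family are ligands or activators of the xenobiotic receptors CAR and PXR, their commercial mixtures can act on the aryl hydrocarbon receptor (AhR), and their hydroxylated products resemble thyroid hormone. In the mammary gland, stromal fibroblasts make the collagen matrix and many of the chemokines that draw leukocytes, and resident macrophages, dendritic cells and lymphocytes present antigen and clear debris.

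The promoters of 4 genes that the results turn on are printed first, since each holds the core motif of the factor for which its list was drawn up. The sequences are those of RefSeq on GRCm38.p6 from 250 bases before to 50 bases after the start, 5′ to 3′ on the strand of the gene, with the motif in capitals on whichever strand it lies. The motifs were GCGTG for AhR, 2 copies of GAAA with NN between them for the interferon regulatory factors and CACCCCAC for the sterol-responsive factor SREBP, searched on both strands, and none of the 3 contains another.
Tiparp, chr3:65528197-65528496, + strand: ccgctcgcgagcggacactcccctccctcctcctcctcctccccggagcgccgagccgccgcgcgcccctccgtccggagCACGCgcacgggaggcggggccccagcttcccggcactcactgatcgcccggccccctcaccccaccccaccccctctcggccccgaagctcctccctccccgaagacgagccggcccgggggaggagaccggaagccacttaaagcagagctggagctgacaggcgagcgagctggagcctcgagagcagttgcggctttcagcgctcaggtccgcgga
Ifit3, chr19:34583279-34583578, + strand: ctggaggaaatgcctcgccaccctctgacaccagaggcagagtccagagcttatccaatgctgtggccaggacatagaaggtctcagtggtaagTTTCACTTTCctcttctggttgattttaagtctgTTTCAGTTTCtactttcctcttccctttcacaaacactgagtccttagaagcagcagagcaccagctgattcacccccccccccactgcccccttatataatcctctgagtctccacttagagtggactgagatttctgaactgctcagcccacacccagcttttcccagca
Cxcl10, chr5:92348840-92349139, - strand: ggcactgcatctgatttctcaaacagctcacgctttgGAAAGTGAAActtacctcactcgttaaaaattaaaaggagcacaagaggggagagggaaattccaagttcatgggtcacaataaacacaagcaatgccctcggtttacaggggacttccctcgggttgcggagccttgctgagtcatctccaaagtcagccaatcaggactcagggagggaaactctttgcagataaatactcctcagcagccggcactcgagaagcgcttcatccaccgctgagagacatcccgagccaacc
Hmgcs1, chr13:119690101-119690400, + strand: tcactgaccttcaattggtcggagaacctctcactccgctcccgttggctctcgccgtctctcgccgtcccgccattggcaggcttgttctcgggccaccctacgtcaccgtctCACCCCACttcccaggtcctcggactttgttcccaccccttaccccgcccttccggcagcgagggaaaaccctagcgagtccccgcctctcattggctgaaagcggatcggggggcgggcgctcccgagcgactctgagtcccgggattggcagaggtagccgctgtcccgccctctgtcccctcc

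Tiparp, a poly(ADP-ribose) polymerase induced by AhR, held GCGTG once, 170 bases before the start, a motif found in 32.4% of all 32851 promoters of this length and in 5 of the 7 AhR list genes that have a promoter in the RefSeq table. Ifit3, an interferon-induced inhibitor of viral RNA translation, held the paired GAAA motif at 156 and 122 bases before the start, and Cxcl10, a chemokine for activated T cells, held it at 213 bases before the start. That motif stood in 18 of 32 interferon-induced genes and in 3.44% of all promoters. Hmgcs1, which makes the precursor of mevalonate, held CACCCCAC 136 bases before the start, the only match among 14 cholesterol genes, with 2.87% of all promoters holding it. The E-box CACGTG of the circadian factors stood in 5 of 16 clock genes and in 7.15% of all promoters. The lists were counted by gene, with a match in any promoter of the gene, and these percentages by promoter. Counted by gene, the shares over all 27025 genes were 35.2, 3.99, 3.3 and 8.09% for the motifs in the order given. These matches describe the letters only.

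The names of the deposited libraries carry 1 of 2 tags, whose meaning is not stated. The 3 controls share a tag, and the 3 high PBDE libraries share the other with VCD_Vehicle_NormEnv and VCD_E2_ICI, so in the main test the tag and the dose cannot be told apart. The library totals were 59733983 to 94508823 UMIs in the controls and 41737881 to 50137572 in the high PBDE libraries, while the median UMIs per cell overlapped in fibroblasts, at 15079 to 22548 and 14495 to 19299. Pairs of controls shared 115 to 138 cell barcodes, up to 2.97% of the smaller library, pairs of high PBDE libraries shared 2 to 5, and a control and a high PBDE library shared 1 to 6. VCD_High_PBDE shared 35 with VCD_Vehicle_NormEnv and 27 with VCD_E2_ICI, which shared 34 with each other, while VCD_High_PBDE_E2 and VCD_High_PBDE_E2_P4 shared 2 or 3 with each of them. The libraries of the second tag thus did not all share barcodes alike. VCD_Vehicle_NormEnv had vehicle, as VCD_High_PBDE did, but neither it nor VCD_E2_ICI had E2 without the antagonist, as the other 2 high PBDE libraries did, so a value within the tag compares hormone as well as dose. Fibroblast sums held 32030 to 49200 CPM of 6 fibroblast markers in the 6 libraries, and Pdgfra was at 0 in the immune sums, as the gate requires. Luminal epithelial markers in the fibroblast sums were at 35.8 to 60.1 CPM in the controls and 66.1 to 70.8 with high PBDE, and their part in any result was not tested. Erythrocyte genes were uneven in the immune sums, from 14.0 to 3833 CPM in the controls and from 50.4 to 1680 with high PBDE. In summed counts, fewer cells of a type and less RNA per cell cannot be told apart.

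In fibroblasts, Dact2 rose with high PBDE and AY036118 fell, and these were the only 2 genes of 14332 (0.014%) that passed the edgeR quasi-likelihood test with the hormone as block and Benjamini-Hochberg adjustment (0.00698% of genes in each direction). In the immune sums 0 of 10739 genes passed (0.0%). Before adjustment, 2498 fibroblast genes (17.4%) had an edgeR p under 0.05, 8.15% of genes higher and 9.28% lower with high PBDE. In immune cells these were 663 genes (6.17%), 3.39% higher and 2.78% lower. DESeq2 with the same design called 494 fibroblast genes (3.45%), 191 higher (1.33%) and 303 lower (2.11%), and 14 immune genes (0.13%), 4 higher (0.0372%) and 10 lower (0.0931%). On simulated counts with a log2 fold of 1, the edgeR fit recovered 82% of the changed genes in fibroblasts and 52.5% in immune cells. For the difference between both classes, tested below, it recovered 25.5%. The simulation gave all genes of a class 1 common spread, without hormone effect or tag, so these rates need not hold for the real libraries. Of the genes tested in fibroblasts, 780 (5.44%) lay higher in all 3 high PBDE libraries than in all 5 VCD libraries without PBDE, and 318 (2.22%) lay lower. In immune cells these counts were 330 (3.07%) and 338 (3.15%).

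Dact2 encodes a Dapper family scaffold that dampens Wnt and Nodal signalling (ENSMUSG00000048826, GRCm38 chr17:14195052-14204304, - strand, positions here and below being those of GENCODE M21). Its level in fibroblasts was 7.31 CPM in VCD_Vehicle, 4.98 in VCD_E2 and 3.93 in VCD_E2_P4, against 46.0 in VCD_High_PBDE, 23.5 in VCD_High_PBDE_E2 and 20.7 in VCD_High_PBDE_E2_P4. Each high PBDE library stood above all controls, and within both doses the library without hormone was the highest. The log2 fold change was 2.39 (SE 0.11, n = 3 pairs, edgeR adjusted p = 0.0194). Of the libraries that took no part in the test, VCD_Vehicle_NormEnv fell between the groups at 13.2 CPM, while VCD_E2_ICI lay inside the high PBDE range at 21.4 CPM, so VCD_High_PBDE_E2_P4 did not exceed VCD_E2_ICI and the separation did not hold against all 5. Low PBDE libraries had 15.0 CPM without hormone, 5.99 with E2 and 6.30 with E2 + P4. Markers of Dpp4+ fibroblasts, a stem-like stromal subset, were at 3348 to 3997 CPM in the controls and 3951 to 5813 with high PBDE. In cells with at least 2 UMIs of Dpp4 the log2 fold change of Dact2 was 2.33 (edgeR adjusted p = 0.00611), and in cells without Dpp4 it was 1.46 (adjusted p = 0.211). Against the 2 libraries of the same tag the log2 fold change was 0.75 (edgeR adjusted p = 0.81), and with the tag as a term it was 2.08 (adjusted p = 0.143). The adjusted p was 0.115 without VCD_E2, 0.129 without VCD_High_PBDE_E2, 0.0793 without VCD_E2_P4 and 0.0993 without VCD_High_PBDE_E2_P4.

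AY036118 is a long non-coding RNA that overlaps Gm42418 on the opposite strand (chr17:39847113-39848035, - strand, and chr17:39846958-39848788, + strand), a locus that carries ribosomal RNA sequence. In fibroblasts AY036118 was at 175, 223 and 202 CPM in the controls with vehicle, E2 and E2 + P4, and at 32.9, 28.3 and 23.4 CPM in the high PBDE libraries in the same order. The groups did not overlap, and the log2 fold change was -2.87 (SE 0.15, edgeR adjusted p = 0.0241). VCD_Vehicle_NormEnv had 78.7 CPM and VCD_E2_ICI 36.2 CPM, so AY036118 was the called gene that held in rank against all 5 VCD libraries without PBDE. The margin to VCD_E2_ICI was narrow. In a fit against these 5 libraries without the hormone block, the log2 fold change was -2.39 (edgeR adjusted p = 0.346). The low PBDE libraries had 126, 200 and 87.1 CPM, the last 2 of these with the tag of the high PBDE libraries. Within the tag the log2 fold change was -1.09 (edgeR adjusted p = 0.802), and with the tag as a term it was -2.03 (adjusted p = 0.195). The adjusted p was 0.152 without VCD_E2, 0.17 without VCD_High_PBDE_E2, 0.0793 without VCD_E2_P4 and 0.0993 without VCD_High_PBDE_E2_P4.

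Other transcripts lay lower together with AY036118, without passing the test. Gm42418 was at 2479, 1468 and 3838 CPM in the controls and at 627, 613 and 561 CPM with high PBDE, with 797 CPM in VCD_E2_ICI and 1730 in VCD_Vehicle_NormEnv. Lars2, the mitochondrial leucyl-tRNA synthetase, was at 121, 82.6 and 140 CPM in the controls and 38.2 to 40.4 CPM with high PBDE, with 47.8 CPM in VCD_E2_ICI and 102 in VCD_Vehicle_NormEnv. For both genes VCD_Vehicle_NormEnv lay inside the range of the controls and VCD_E2_ICI close to the high PBDE libraries. mt-Nd6, a complex I subunit read from the light strand of mitochondrial DNA, was at 17.5 to 26.3 CPM in the controls and 8.39 to 11.2 with high PBDE. In immune cells AY036118 fell below every library without PBDE too, from 168, 235 and 299 CPM to 20.2, 25.4 and 13.9 CPM, with 87.6 CPM in VCD_Vehicle_NormEnv and 27.2 in VCD_E2_ICI. Its log2 fold change there was -3.54 (SE 0.29, edgeR adjusted p = 0.0731). Because counts of overlapping genes on opposite strands depend on the strand setting of the counting, which is not stated, AY036118 and Gm42418 are given as uncertain.

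**Figure D1:**
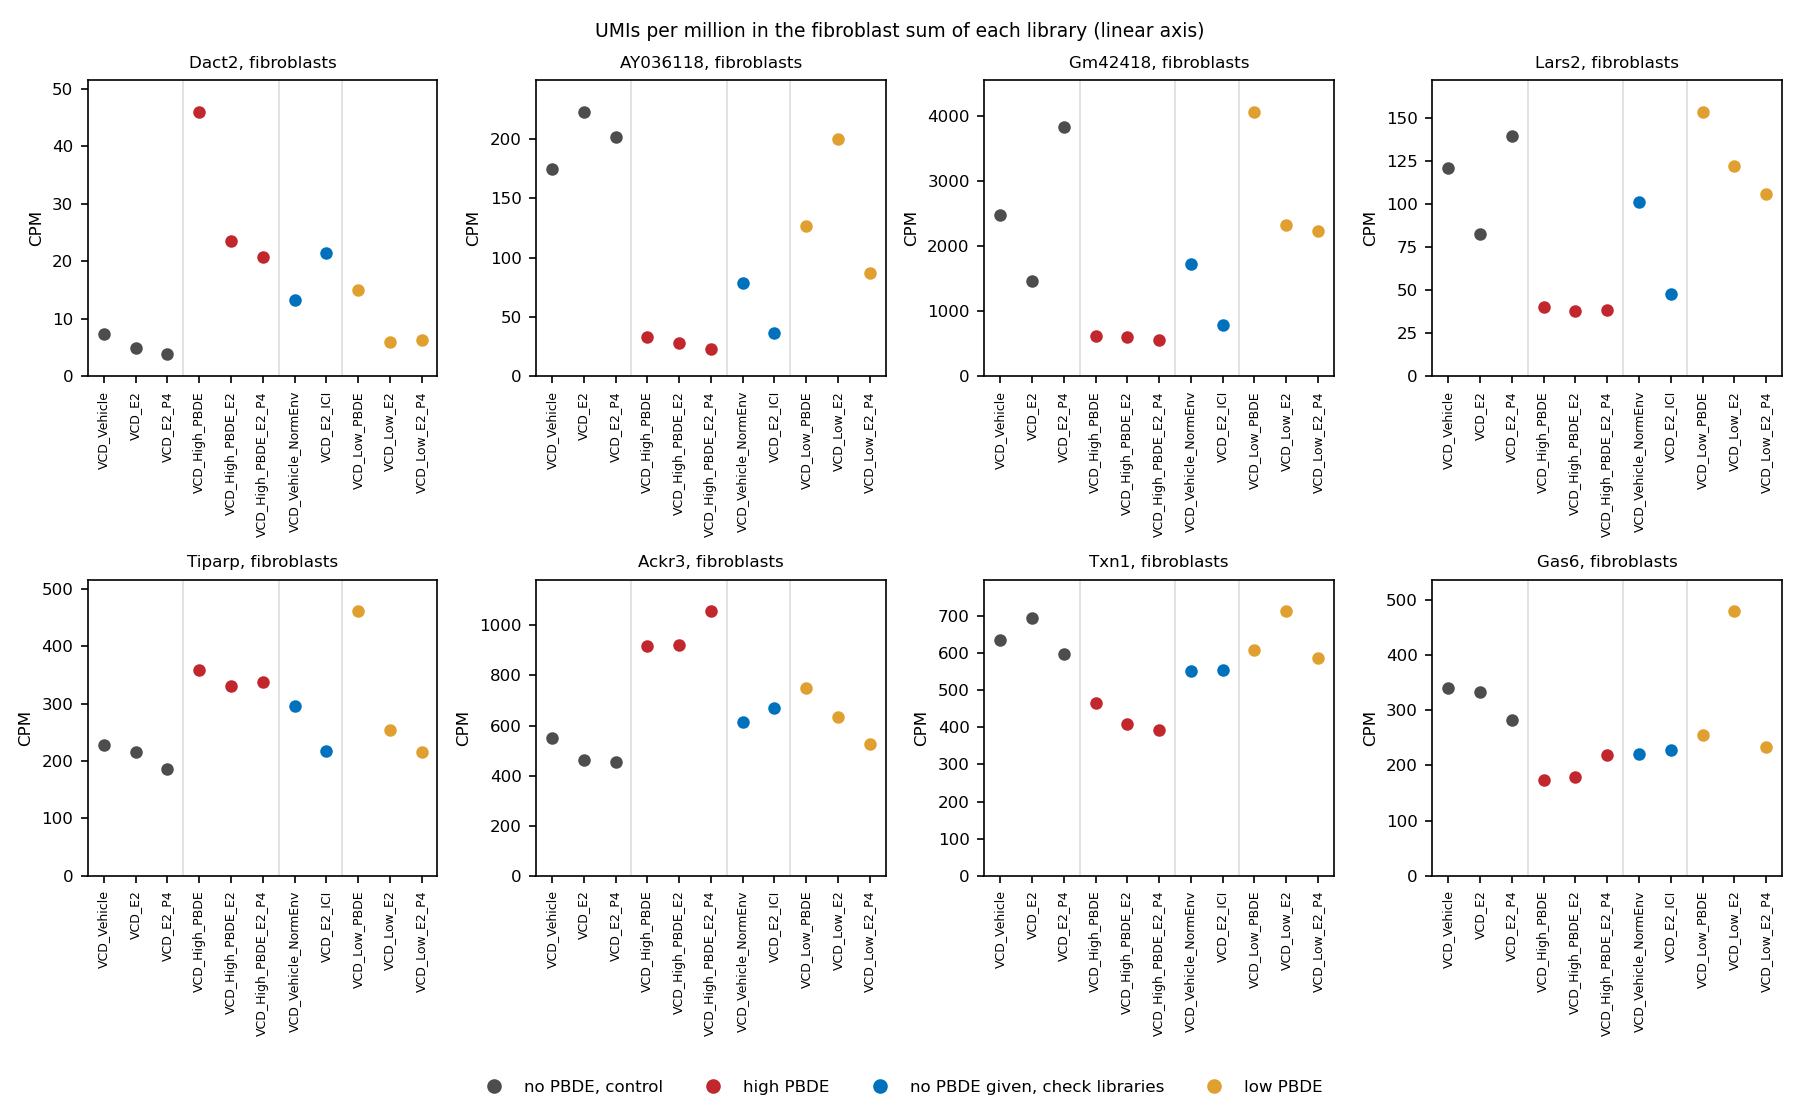
Level of 8 genes in the fibroblast sum of each library, in CPM on a linear axis that starts at 0. Each point is 1 library, with controls in grey, high PBDE in red, the check libraries without a PBDE dose in blue and low PBDE in orange. Dact2 is at 20.7 to 46.0 CPM in the high PBDE libraries and 3.93 to 7.31 CPM in the controls, while VCD_E2_ICI reaches 21.4 CPM.

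Genes of xenobiotic sensing were read by list. Of 9 AhR genes, 6 could be tested in fibroblasts and 0 passed edgeR, with 2 at an unadjusted p under 0.05 and 1 called by DESeq2. Their median log2 fold change was 0.07, beside 0.00 over all genes. Tiparp was at 228, 215 and 187 CPM in the controls and 358, 332 and 338 CPM with high PBDE. The high PBDE libraries stood above the controls, VCD_Vehicle_NormEnv (295 CPM) and VCD_E2_ICI (218 CPM), and the log2 fold change was 0.67 (SE 0.08, edgeR adjusted p = 0.116, DESeq2 adjusted p = 1.70e-07). VCD_Low_PBDE had 461 CPM of Tiparp, above every other library. Cyp1b1, a cytochrome P450 that AhR induces and that hydroxylates estradiol, was at 46.5 to 63.8 CPM in the controls and 55.3 to 79.5 with high PBDE, and VCD_E2_ICI had 87.2 CPM. No UMI of Cyp1a1, the AhR target used most widely as its readout, was seen in the fibroblast sums of these 6 libraries, which allows up to 3 UMIs per library. In immune cells Tiparp was at 144 to 183 CPM in the controls and 211 to 218 CPM with high PBDE, above VCD_Vehicle_NormEnv (148 CPM) and VCD_E2_ICI (130 CPM), with a log2 fold change of 0.39 (SE 0.13, edgeR adjusted p = 0.794).

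Targets of CAR and PXR were near the median of all genes in fibroblasts. Of 15 genes 8 were tested, 0 passed either tool or had an unadjusted edgeR p under 0.05, and the median log2 fold change was -0.03. Por, the electron donor of the cytochrome P450 enzymes, had a log2 fold change of 0.08 (SE 0.17) and Gadd45b, a stress-response regulator, of -0.32 (SE 0.17). The thyroid hormone list had 15 tested genes, 0 called by either tool, 2 higher at an unadjusted edgeR p under 0.05 and a median of 0.08. Klf9, a thyroid hormone and glucocorticoid target, had a log2 fold change of 0.36 (SE 0.17), Ncor1, a corepressor of the thyroid hormone receptor, of 0.06 (SE 0.07) and Thra, the receptor itself, of 0.21 (SE 0.07), all with an edgeR adjusted p of at least 0.216. Estrogen receptor targets divided evenly, with 10 of 20 tested genes positive, 0 called by edgeR, 5 at an unadjusted p under 0.05, 1 called by DESeq2 and a median of -0.02. Esr1, the estrogen receptor, was at 48.1 to 61.6 CPM in the controls and 57.4 to 59.8 with high PBDE. Fos and Lpl, the most abundant members, had log2 fold changes of 0.09 (SE 0.09) and 0.03 (SE 0.07).

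All 38 Nrf2 and oxidative stress genes were tested, 0 passed edgeR, 7 were higher and 7 lower at an unadjusted p under 0.05, DESeq2 called 1 higher and 3 lower, and the median was 0.03. Txn1, the cytosolic thioredoxin, was at 636, 694 and 598 CPM in the controls and 467, 408 and 392 CPM with high PBDE, below VCD_Vehicle_NormEnv (553 CPM) and VCD_E2_ICI (554 CPM), with a log2 fold change of -0.65 (SE 0.08, edgeR adjusted p = 0.116, DESeq2 adjusted p = 4.58e-07). Gstp1, a glutathione transferase, lay at 103 to 151 CPM in the controls and 54.8 to 88.5 with high PBDE, again below all 5. Nfe2l2, which encodes Nrf2, lay the other way at 135 to 159 CPM against 181 to 195, as did Prdx6, a peroxiredoxin, at 219 to 257 CPM against 294 to 304. Of the 38 genes 2 lay above all 5 and 2 below, beside 5.44% and 2.22% of all genes. The iron-storage chains Fth1 and Ftl1 had log2 fold changes of 0.01 (SE 0.09) and 0.04 (SE 0.07). In immune cells Txn1 and Gstp1 lay below all 5 VCD libraries without PBDE as well, Txn1 at 335 to 376 CPM against 431 to 501 in the controls and Gstp1 at 32.3 to 48.9 CPM against 56.4 to 84.6. The metallothioneins Mt1 and Mt2, which bind zinc and cadmium, had log2 fold changes in fibroblasts of -0.05 (SE 0.13) and -0.34 (SE 0.09), and their list a median of -0.05 over 5 genes, 0 of them called by either tool and 2 lower at an unadjusted edgeR p under 0.05.

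All 21 genes of cholesterol synthesis and uptake had a negative log2 fold change in fibroblasts, beside 7028 of the 14332 genes tested, and the median was -0.61. None passed the test: edgeR called 0 of them, 11 had an unadjusted p under 0.05 and DESeq2 called 8, all lower. Hmgcs1 was at 200, 152 and 142 CPM against 128, 63.5 and 44.9 CPM, with 253 CPM in VCD_Vehicle_NormEnv and 202 in VCD_E2_ICI (log2 fold change -1.23, SE 0.19, edgeR adjusted p = 0.116). In each hormone pair the high PBDE library was lower, and the gap was smallest without hormone. Sqle, the squalene epoxidase, Cyp51, the lanosterol demethylase, and Stard4, a sterol carrier, lay, like Hmgcs1, below all 5 VCD libraries without PBDE, and 5 of 21 members did so, beside 2.22% of all genes. Insig1, which holds back SREBP, overlapped, at 89.9 to 182 CPM against 62.4 to 204 (log2 fold change -0.39, SE 0.17).

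Summed over the list, cholesterol genes were at 1046, 867 and 766 CPM in the controls, 887, 462 and 366 CPM with high PBDE, 1344 CPM in VCD_Vehicle_NormEnv and 1214 in VCD_E2_ICI. The low PBDE libraries had 605, 637 and 696 CPM. The sum with high PBDE and no hormone thus lay above the controls that received hormone, while each hormone pair had the same order. The median log2 fold change was -0.86 within the tag and -0.96 with the tag as a term, and ran from -0.96 without VCD_Vehicle to -0.29 without VCD_High_PBDE_E2. In immune cells the median of 20 tested genes was -0.11, with 0 called by either tool and 1 at an unadjusted edgeR p under 0.05.

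**Figure D2:**
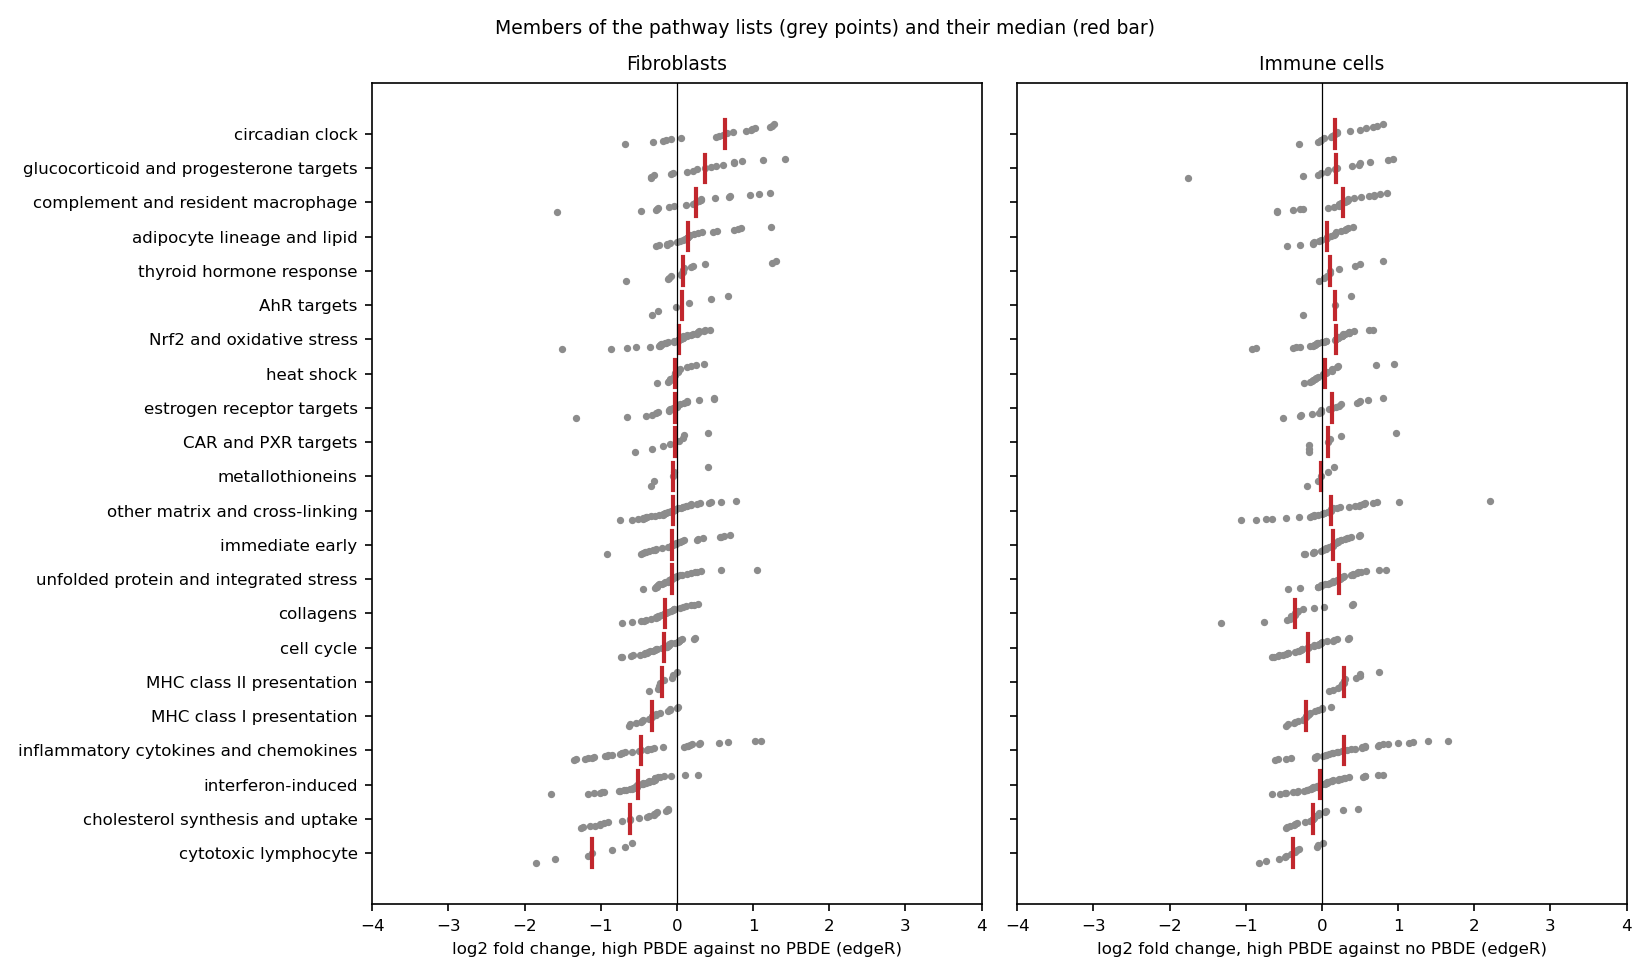
Log2 fold change of high PBDE against none for each tested gene of the lists, with a row per list, in fibroblasts (left) and immune cells (right). Each grey point is a gene and the red bar is the median of the list. In fibroblasts the cholesterol list lies wholly below 0 with a median of -0.61, and the circadian clock list has a median of 0.63.

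Of 41 tested interferon-induced genes 39 had a negative log2 fold change in fibroblasts, with a median of -0.51. The median was 0.12 against the 2 libraries of the same tag, -0.59 with the tag as a term and -0.26 against all 5 VCD libraries without PBDE. The sum over the list was 4625 CPM in VCD_High_PBDE and 6167 CPM in VCD_Vehicle_NormEnv, which share the tag and had no hormone. edgeR called 0 of the genes, 31 had an unadjusted p under 0.05 and DESeq2 called 19, all lower. Ifit3 was at 41.9, 140 and 138 CPM in the controls and 27.6, 45.1 and 75.2 CPM with high PBDE, beside 33.9 CPM in VCD_Vehicle_NormEnv and 21.2 in VCD_E2_ICI (log2 fold change -1.09, SE 0.20, edgeR adjusted p = 0.122). Cxcl10 was at 97.3, 134 and 277 CPM against 47.9, 66.0 and 110 CPM, beside 80.6 and 112 CPM in VCD_Vehicle_NormEnv and VCD_E2_ICI (log2 fold change -1.17, SE 0.09, edgeR adjusted p = 0.0885). Ifitm3, which blocks viral entry, was at 2211, 2876 and 3016 CPM against 1728, 2016 and 2770 CPM, and Ifi27l2a, an interferon-induced mitochondrial protein, had a log2 fold change of -0.58 (SE 0.14). For all 4 genes each hormone pair was lower with high PBDE, and in both doses the library without hormone was the lowest. Of the 41, 9 lay below all 3 controls, beside 6.53% of all genes, and 0 below all 5 VCD libraries without PBDE.

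MHC class I genes gave a like picture, with 16 of 17 negative, 0 called by edgeR, 10 lower at an unadjusted p under 0.05, 6 called lower by DESeq2 and a median of -0.32. The median was -0.04 within the tag, -0.22 with the tag as a term and -0.16 against all 5, and the sum over the list was 4221 CPM in VCD_High_PBDE beside 4837 CPM in VCD_Vehicle_NormEnv. H2-D1, a class I heavy chain, had a log2 fold change of -0.37 (SE 0.09) and B2m, the light chain, of -0.28 (SE 0.10). Tap1, a subunit of the peptide transporter, was at 33.3 to 48.1 CPM in the controls and 22.5 to 33.3 with high PBDE, and VCD_E2_ICI had 22.1 CPM. Tap2, its partner, was at 50.9 to 59.3 CPM against 44.6 to 46.9 and was the member below all 5.

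Of 33 tested cytokine and chemokine genes 0 passed edgeR in fibroblasts, 14 were lower and 3 higher at an unadjusted p under 0.05, and DESeq2 called 10 lower and 2 higher, with a median of -0.47. Il6, a cytokine of the acute phase, was at 94.4, 82.0 and 109 CPM in the controls and 72.0, 35.9 and 53.9 CPM with high PBDE, below VCD_Vehicle_NormEnv (72.9 CPM) and VCD_E2_ICI (92.9 CPM). Cxcl2, a neutrophil chemokine, was at 15.8, 26.0 and 34.3 CPM against 9.14, 8.51 and 12.7 CPM (log2 fold change -1.33, SE 0.17, edgeR adjusted p = 0.116), also below all 5. For Il6 the margin between VCD_High_PBDE and VCD_Vehicle_NormEnv was narrow. Cxcl1, another neutrophil chemokine, was at 812 to 903 CPM against 273 to 592, with 584 CPM in VCD_Vehicle_NormEnv and 1009 in VCD_E2_ICI. Ccl11, the eosinophil chemokine eotaxin and the most abundant member, had a log2 fold change of 0.14 (SE 0.10, edgeR adjusted p = 0.507). The median of the list was -0.27 within the tag and -0.45 with the tag as a term.

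Of 18 tested circadian clock genes 13 had a positive log2 fold change in fibroblasts with high PBDE, and the median was 0.63. edgeR called 0 of them, 10 were higher at an unadjusted p under 0.05 and DESeq2 called 4, all higher. Per2, a repressor of the clock loop, was at 1.89, 3.15 and 4.45 CPM in the controls and 4.59, 11.5 and 6.91 CPM with high PBDE (log2 fold change 1.22, SE 0.25, edgeR adjusted p = 0.129). Cry2, a second repressor, was at 36.7, 27.8 and 27.1 CPM against 49.7, 94.97 and 88.5 CPM, with 37.7 CPM in VCD_Vehicle_NormEnv and 41.9 in VCD_E2_ICI. Per2, Per3, Cry2, Nr1d2 and Tef stood above all 5 VCD libraries without PBDE, which is 5 of 18 beside 5.44% of all genes. Per1, the third period gene, overlapped, at 22.7 to 29.5 CPM against 28.9 to 49.7, as did Dbp, a clock output factor, at 22.5 to 51.2 CPM against 47.7 to 127. Arntl, the activator of the loop, was at 23.1, 18.5 and 12.3 CPM in the controls and 21.1, 4.76 and 12.6 CPM with high PBDE, where VCD_High_PBDE_E2 was the lowest of all. Bhlhe40 and Rora, the most abundant members, had log2 fold changes of 0.52 (SE 0.21) and 0.05 (SE 0.11).

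VCD_High_PBDE_E2 was the highest library for Per2, Per3, Cry2, Nr1d2, Tef and Dbp. The median of the list was 0.34 without VCD_E2, 0.81 without VCD_High_PBDE_E2_P4, 0.44 within the tag and 0.70 with the tag as a term. The time of day at which tissue was taken is not given in the sources used here, and its part was not tested. The immune sums had a median of 0.18 over 16 clock genes, with 0 called by either tool and 2 higher at an unadjusted edgeR p under 0.05.

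**Figure D3:**
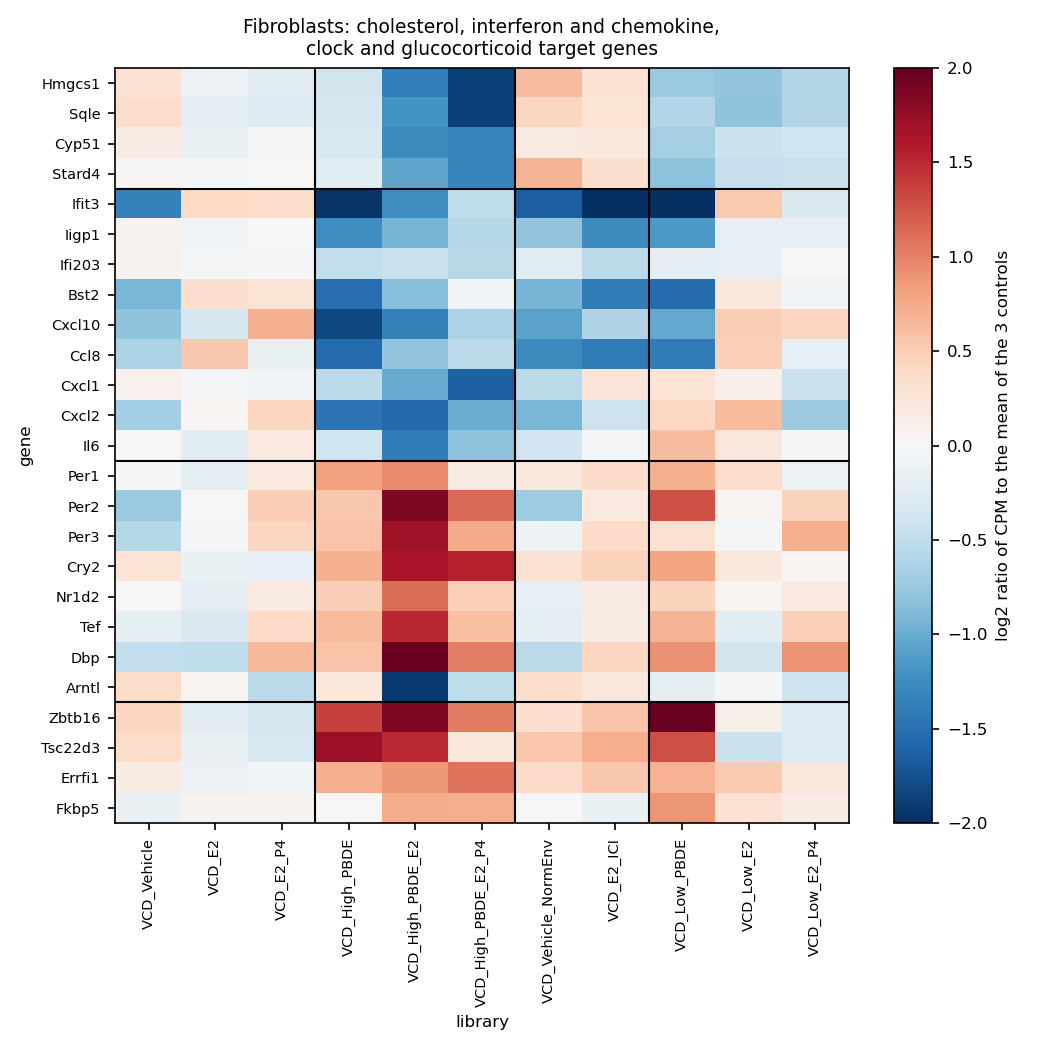
Level of list genes in the fibroblast sum of each library relative to the mean of the 3 controls, as the log2 ratio of CPM, with the colour scale ending at a ratio of 2 on the log2 scale in both directions. Columns are libraries and rows are genes grouped by list. Hmgcs1 of the cholesterol list (44.9 to 128 CPM with high PBDE, 142 to 200 in the controls) is low in the high PBDE columns. Cry2 of the clock list (49.7 to 94.97 CPM against 27.1 to 36.7) is high there, while Per1, Dbp and Arntl overlap between the doses. The cholesterol genes drawn, Hmgcs1, Sqle, Cyp51 and Stard4, all lie below all 5 VCD libraries without PBDE. Insig1, a member that overlaps, is not drawn.

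Targets of the glucocorticoid and progesterone receptors had a median of 0.36 in fibroblasts, with 12 of 17 positive, 0 called by edgeR, 7 higher and 1 lower at an unadjusted p under 0.05 and 3 called higher by DESeq2. Zbtb16, a zinc finger repressor that both hormones induce, was at 28.7, 18.3 and 16.6 CPM in the controls and 54.7, 77.5 and 43.5 CPM with high PBDE, above VCD_Vehicle_NormEnv (26.8 CPM) and VCD_E2_ICI (31.5 CPM). Its log2 fold change was 1.42 (SE 0.22, edgeR adjusted p = 0.116), and VCD_Low_PBDE had 83.6 CPM. Errfi1, an inhibitor of the EGF receptor, was at 545 to 654 CPM against 968 to 1250, again above all 5. Tsc22d3, the glucocorticoid-induced leucine zipper, was at 56.1, 39.1 and 35.0 CPM against 141, 123 and 50.3 CPM, where VCD_High_PBDE_E2_P4 lay inside the range of the controls. Fkbp5, a chaperone of the receptor, was at 14.1 to 16.5 CPM against 15.6 to 26.1. Mt1 and Mt2, also on this list, are given above. The median was 0.16 within the tag and 0.33 with the tag as a term.

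Further fibroblast genes among those with the lowest edgeR p values lay outside the lists. Ackr3, a scavenging receptor of the chemokine Cxcl12, was at 551, 464 and 455 CPM in the controls and 919, 922 and 1056 CPM with high PBDE, above VCD_Vehicle_NormEnv (614 CPM) and VCD_E2_ICI (672 CPM), with a log2 fold change of 0.94 (SE 0.11, edgeR adjusted p = 0.116, DESeq2 adjusted p = 2.87e-10). Ackr3 is also among the Dpp4+ fibroblast markers that were summed above. Cxcl12 itself was at 267 to 367 CPM against 321 to 514 (log2 fold change 0.29, SE 0.19). Gas6, a ligand of the TAM receptors that clear dying cells, was at 340, 333 and 282 CPM against 174, 179 and 219 CPM (log2 fold change -0.79, SE 0.13, edgeR adjusted p = 0.116), and VCD_Vehicle_NormEnv, at 221 CPM, came close to the 219 CPM of VCD_High_PBDE_E2_P4. Mgp, an inhibitor of calcification, was at 475 to 916 CPM against 271 to 381, with 219 CPM in VCD_E2_ICI. Sepp1, the selenium carrier, was at 714 to 732 CPM against 1122 to 1149, with 1253 CPM in VCD_E2_ICI.

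Adipocyte lineage and lipid genes had a median of 0.15 over 23 tested genes, 0 called by edgeR, 7 higher and 1 lower at an unadjusted p under 0.05 and 2 called higher by DESeq2. Cebpb, an early factor of fat cell differentiation, was at 1121, 708 and 725 CPM in the controls and 1180, 1294 and 1234 CPM with high PBDE. The high PBDE libraries were above all 5 VCD libraries without PBDE, by a narrow margin over VCD_Vehicle and VCD_E2_ICI (1093 CPM), and the log2 fold change was 0.53 (SE 0.17, edgeR adjusted p = 0.219). Cebpb was the only member above all 5, which is 1 of 23 beside 5.44% of all genes.

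The collagens had a median of -0.15 over 25 genes, 0 called by edgeR, 3 lower at an unadjusted p under 0.05 and 1 called by DESeq2. The median was 0.15 within the tag, -0.21 with the tag as a term and 0.01 against all 5. Col3a1 and Col1a2, the fibrillar chains that helped define the gate, had log2 fold changes of -0.07 (SE 0.15) and -0.04 (SE 0.12). The lists of unfolded protein, immediate early, heat shock, MHC class II, other matrix, cell cycle, complement and cytotoxic genes, taken with the collagens, had medians between -1.12 and 0.26. Their most abundant members (Atf3, Hspa5, Fos, Jund, Hspa8, Hsp90ab1, Ifi30, Cd74, Dcn, Sparc, Cdkn1a, Hmgb2, C3, Cd9, Ccl5 and Gzma) had log2 fold changes between -1.12 and 0.31 with edgeR adjusted p values of 0.174 and above, and DESeq2 called 12 members of these 9 lists in all. The lowest median was that of 7 cytotoxic lymphocyte genes, whose most abundant member Ccl5 was at 3.40 to 10.3 CPM in the controls and 2.30 to 3.45 with high PBDE. That median of -1.12 ran from -1.51 without VCD_E2 to -0.40 without VCD_High_PBDE_E2_P4. The highest, 0.26 for the complement list, was -0.14 without VCD_High_PBDE, 0.54 without VCD_E2, -0.14 within the tag and -0.05 with the tag as a term. The median of the cell cycle list was -0.17, with 1.49 within the tag, -0.13 with the tag as a term and 0.09 against all 5.

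**Figure D4:**
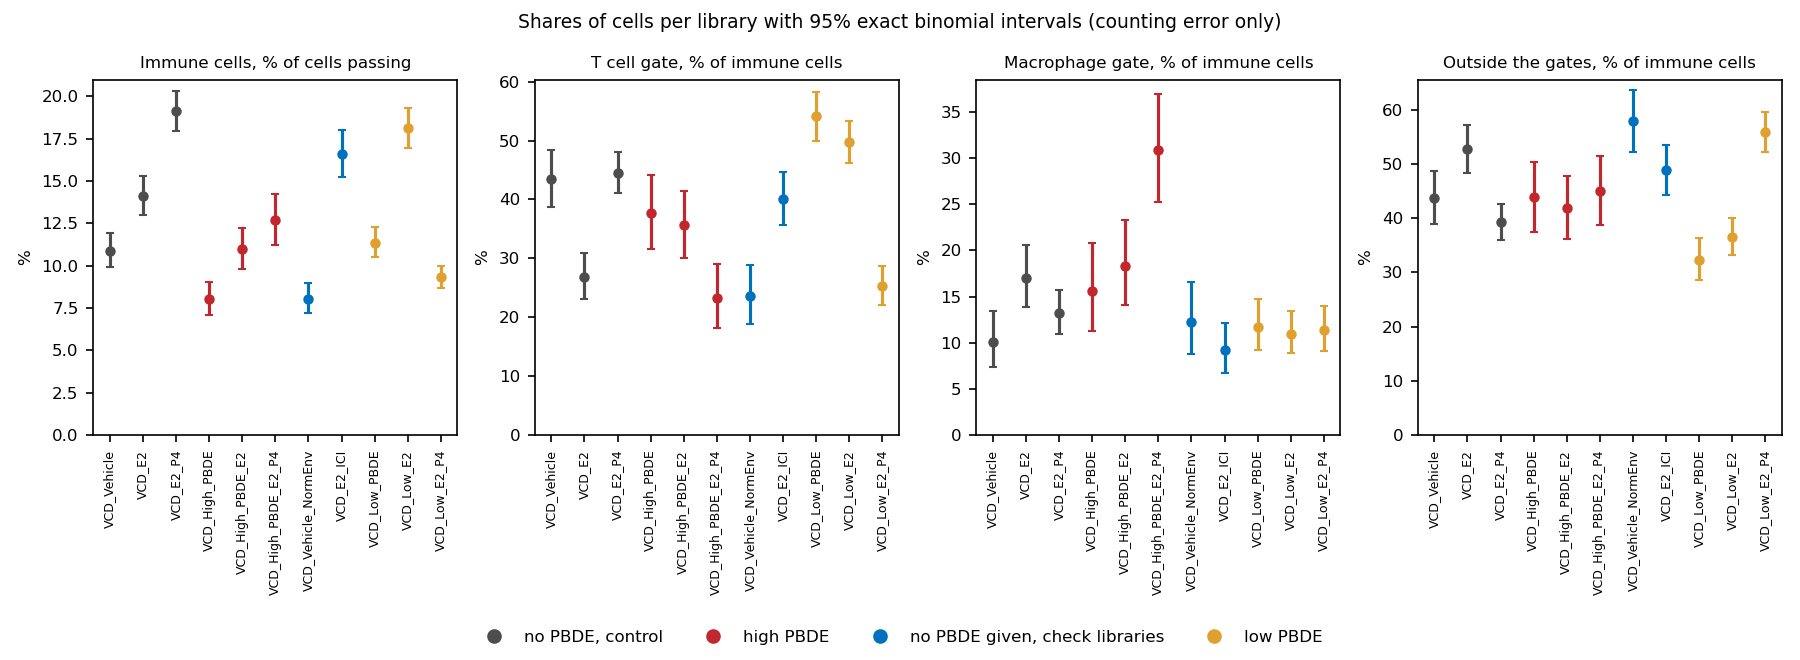
Share of immune cells among the cells that passed, and shares of the T cell gate, the macrophage gate and cells outside the gates among immune cells, in percent per library with exact 95% binomial intervals. Points are libraries, coloured by PBDE dose. The macrophage share reaches 30.8% in VCD_High_PBDE_E2_P4, while those of the other libraries range from 9.17 to 18.3%.

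Immune cells made up 10.9, 14.1 and 19.1% of cells in the controls with vehicle, E2 and E2 + P4, and 8.03, 11.0 and 12.7% with high PBDE. At these limits each hormone pair was lower with high PBDE, while the groups overlapped, and VCD_Vehicle_NormEnv had 8.06% and VCD_E2_ICI 16.6%. The shares depended on the gate. A stricter gate, with at least 2 UMIs of Ptprc and fewer than 5 collagen UMIs, kept 79.8, 67.5 and 44.6% of the control immune cells. In VCD_High_PBDE and VCD_High_PBDE_E2 it kept 83.6 and 76.1%. With the mitochondrial limit at 10%, immune cells rose from 416 to 562 in VCD_Vehicle and from 244 to 430 in VCD_High_PBDE. T cells, gated by at least 2 UMIs of Cd3d, Cd3e and Cd3g, made up 43.5, 26.9 and 44.6% of immune cells in the controls and 37.7, 35.6 and 23.3% with high PBDE. Macrophages, gated by at least 5 UMIs of C1qa, C1qb and C1qc, made up 10.1, 17.0 and 13.2% against 15.6, 18.3 and 30.8%. Each pair was higher in its macrophage share, and in VCD_High_PBDE_E2_P4 the exact binomial interval ran from 25.2 to 36.9%, above that of VCD_E2_P4, 11.0 to 15.7%. No test was run on shares with 3 pairs, and the intervals cover counting error only. The summed macrophage markers were at 2304, 3939 and 2892 CPM in the controls and 2431, 3527 and 5541 CPM with high PBDE, so that, unlike the share, the sum was lower in the E2 pair. Plasma cell markers were uneven, at 302 to 822 CPM against 178 to 3826, with 8171 CPM in VCD_Vehicle_NormEnv.

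MHC class II genes were higher in the immune sums with high PBDE in fold change, though none passed the test. All 12 had positive log2 fold changes, beside 5465 of 10739 genes, and the median was 0.29, beside 0.00 over all genes. edgeR called 0, 3 had an unadjusted p under 0.05 and DESeq2 called 0. Cd74, the invariant chain that guards the class II groove, was at 13170, 10780 and 10860 CPM in the controls and 14350, 16740 and 16170 CPM with high PBDE, with 11430 CPM in VCD_Vehicle_NormEnv and 9188 in VCD_E2_ICI (log2 fold change 0.45, SE 0.13, edgeR adjusted p = 0.794). H2-Aa, the alpha chain of I-A, was at 4096 to 4701 CPM against 5426 to 6739 (log2 fold change 0.50, SE 0.13). H2-DMb2, a chain of the peptide exchange factor, was at 33.5, 33.3 and 27.9 CPM against 65.7, 58.3 and 38.6 CPM (log2 fold change 0.75, SE 0.15, edgeR adjusted p = 0.762). Cd74, H2-Aa, H2-DMa, H2-DMb1, H2-DMb2 and Ifi30, the lysosomal thiol reductase, stood above all 5 VCD libraries without PBDE, which is 6 of 12 beside 3.07% of all genes. The median was 0.70 within the tag and 0.58 with the tag as a term, and ran from 0.17 without VCD_E2_P4 to 0.40 without VCD_High_PBDE. Class II genes are made mainly by dendritic cells, macrophages and B cells. Markers of conventional dendritic cells were at 165 to 275 CPM in the controls and 266 to 325 with high PBDE, macrophage markers were uneven as given above, and the part of either in the difference was not tested.

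Cytokine and chemokine genes had a median of 0.29 in immune cells, the reverse in sign of the fibroblasts, with 26 of 33 positive, 0 called by edgeR, 8 higher at an unadjusted p under 0.05 and 1 called by DESeq2. Il1a, an alarm cytokine, was at 4.48, 2.23 and 6.15 CPM in the controls and 8.26, 13.0 and 18.2 CPM with high PBDE. Tnf, the tumour necrosis factor, was at 63.8 to 79.5 CPM against 81.3 to 125 (log2 fold change 0.53, SE 0.16, edgeR adjusted p = 0.794). Vcam1, an adhesion molecule, was at 16.9, 10.4 and 13.6 CPM against 27.3, 45.3 and 33.9 CPM. These 3 genes of 33 stood above all 5 VCD libraries without PBDE, beside 3.07% of all genes. Ccl5 and Ccl6, the most abundant chemokines, overlapped between the doses, Ccl5 at 1447 to 4782 CPM against 1821 to 3168 and Ccl6 at 595 to 1382 against 909 to 1442.

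The other 20 lists had medians between -0.38 and 0.27 in immune cells, and DESeq2 called 1 of their members. The lowest median, that of the cytotoxic lymphocyte list, ran from -1.18 without VCD_E2 to 0.04 without VCD_High_PBDE, and the highest, that of the complement and resident macrophage list, from 0.04 without VCD_E2_P4 to 0.55 without VCD_High_PBDE_E2. Their most abundant members (Tiparp, Ahr, Gadd45b, Por, Ftl1, Fth1, Mt1, Mt2, Ncor1, Klf9, Fos, Lpl, Hspa5, Hsp90b1, Junb, Jund, Hspa8, Hsp90ab1, Ifitm3, Ifi27l2a, H2-D1, H2-K1, Col3a1, Col1a2, Fn1, Dcn, Cebpb, Insig1, Srebf2, Hmgb2, Cdkn1a, Dusp1, Rora, Bhlhe40, Retnla, Apoe, Ccl5 and Gzma) had log2 fold changes between -0.55 and 0.49, with edgeR adjusted p values of 0.794 and above. Interferon-induced genes had a median of -0.02 in immune cells, with 0.39 within the tag and -0.15 with the tag as a term. Isg15, an interferon-induced ubiquitin-like protein, was the member above all 5 there, at 46.5 to 60.1 CPM in the controls and 85.1 to 103 CPM with high PBDE, and at 84.1 CPM in VCD_Vehicle_NormEnv. That is 1 of 41 tested genes, beside 3.07% of all genes. Sult1a1, a sulfotransferase of phenols on the CAR and PXR list, was at 18.8 to 25.5 CPM against 26.4 to 56.4, also above all 5.

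Summed over the T cell gate alone, with 139 to 372 cells in the controls and 59 to 103 with high PBDE, 11 of 8048 genes rose (0.137%) and 2 fell (0.0249%). Cd74 in this gate was at 5482, 5412 and 5399 CPM in the controls and 9516, 10430 and 9421 CPM with high PBDE, with 7775 CPM in VCD_Vehicle_NormEnv and 4173 in VCD_E2_ICI (log2 fold change 0.85, SE 0.07, edgeR adjusted p = 0.0198). H2-Aa, H2-Ab1 and H2-Eb1 rose with it, by 0.90 (SE 0.09), 0.73 (SE 0.09) and 0.74 (SE 0.09) on the log2 scale. Cells with a UMI of H2-Aa numbered 21 of 92, 20 of 103 and 17 of 59 with high PBDE and 28 of 181, 23 of 139 and 77 of 372 in the controls, 15.5 to 20.7% of controls against 19.4 to 28.8%, at median depths of 5202 to 6605 UMIs. Of the fibroblasts, which should lack H2-Aa, 7.87 to 17.6% had a UMI at median depths of 14495 to 22548. Markers of conventional dendritic cells were higher in the gate too, at 243 to 299 CPM in the high PBDE libraries and 144 to 178 in the controls, and their part in the rise of the class II genes was not tested. No doublet caller was run.

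Il13, the type 2 cytokine, was at 17.9, 22.8 and 40.3 CPM in the T cell gate of the controls and 149, 173 and 148 CPM with high PBDE, with 13.4 and 12.8 CPM in VCD_Vehicle_NormEnv and VCD_E2_ICI (log2 fold change 2.55, SE 0.27, edgeR adjusted p = 0.0256). The level rested on 8, 10 and 4 cells with a UMI with high PBDE and 4, 7 and 13 in the controls. Over all immune cells, Il13 was seen in 4.35 to 4.51% of cells with high PBDE and 3.83 to 4.84% in the controls, at median depths of 6946 to 9365 UMIs, beside 0.161 to 0.716% of the deeper fibroblasts, which should lack it. Markers of mast cells and basophils, which also make Il13, were at 4.76 to 7.14 CPM in the T cell gate of the controls and 10.8 to 21.0 with high PBDE, with Fcer1a, Ms4a2 and Mcpt8 at 0, and their part in the rise of Il13 was not tested. Csf2, a growth factor of myeloid cells, rose from 22.2, 41.6 and 93.5 CPM to 91.3, 198 and 277 CPM (log2 fold change 1.92, SE 0.20, edgeR adjusted p = 0.0256), where VCD_High_PBDE lay just below VCD_E2_P4. Calca, the calcitonin gene-related peptide, rose from 26.4, 52.2 and 31.3 CPM to 84.1, 160 and 141 CPM (log2 fold change 1.83, SE 0.19, edgeR adjusted p = 0.0256). Il1b, an inflammasome cytokine, rose too, at 319 to 416 CPM in the controls and 712 to 901 with high PBDE (edgeR adjusted p = 0.0372). These levels also rested on few cells with a UMI. With high PBDE they numbered 8, 11 and 7 for Csf2, 12, 15 and 9 for Calca and 14, 13 and 7 for Il1b. In the controls they numbered 4, 9 and 26 for Csf2, 15, 13 and 30 for Calca and 18, 22 and 46 for Il1b. The part of other cell types in these rises was not tested. Marcksl1, a substrate of protein kinase C, Dab2, a clathrin adaptor, and the long non-coding RNA Gm12840 made up the rest of the rise, and AY036118 and Gm10073 were the genes that fell. Gata3, Il1rl1 and Areg, markers of type 2 lymphocytes, were at 508 to 570, 399 to 434 and 555 to 829 CPM with high PBDE and at 138 to 565, 102 to 551 and 87.9 to 860 CPM in the controls. All 3 thus overlapped, with VCD_E2 the highest or nearly the highest of the 6 libraries.

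Over the macrophage gate, with 42 to 110 cells in the controls and 38 to 78 with high PBDE, 5 of 7372 genes rose (0.0678%) and 7 fell (0.095%). Summed markers of other kinds separated the groups in this gate as well, and their part in the gene results was not tested. Monocyte markers were at 10800 to 12910 CPM in the controls and 9569 to 10580 with high PBDE, with 9123 and 9013 CPM in VCD_Vehicle_NormEnv and VCD_E2_ICI, and macrophage markers at 12210 to 12570 CPM against 12590 to 15030, with 14350 and 13090 CPM in those 2 libraries. Fibroblast markers were at 479 to 664 CPM in the controls and 281 to 460 with high PBDE, with 558 and 318 CPM in the same 2 libraries and Pdgfra at 0 in the libraries compared. Markers of Dpp4+ fibroblasts were at 133 to 186 CPM against 206 to 278, with 193 and 199 CPM in the 2 libraries. Tsc22d3 rose from 195, 155 and 109 CPM to 407, 460 and 236 CPM (log2 fold change 1.26, SE 0.16, edgeR adjusted p = 0.00969), but VCD_Vehicle_NormEnv, at 328 CPM, lay above VCD_High_PBDE_E2_P4. Glul, glutamine synthetase, was at 218 to 288 CPM in the controls and 405 to 537 with high PBDE (edgeR adjusted p = 0.0274), beside 469 and 514 CPM in VCD_Vehicle_NormEnv and VCD_E2_ICI. Phlda1, a pleckstrin homology protein, and Jdp2, an AP-1 repressor, rose as well, and the check libraries reached 421 CPM of Phlda1, above the 362 CPM of the highest high PBDE library. For Jdp2, VCD_E2_ICI had 117 CPM, above the 84.0 CPM of VCD_High_PBDE. Mmp12, a macrophage elastase, was at 11.4, 318 and 14.5 CPM in the controls and 0, 5.02 and 3.95 CPM with high PBDE, from 1 to 7 cells a control. Ltb4r1, the leukotriene B4 receptor, fell from levels of 51.8 to 62.5 CPM in the controls to 13.4 to 18.8 CPM with high PBDE (log2 fold change -1.74, SE 0.24, edgeR adjusted p = 0.0139), where VCD_Vehicle_NormEnv was at 0 and VCD_E2_ICI at 4.57 CPM. AY036118, Gm42418, Lars2 and Hist1h2ap, a histone gene, were also among the genes that fell, but none of them held against both check libraries. VCD_E2_ICI had 13.7 CPM of AY036118 and 722 of Gm42418, and VCD_Vehicle_NormEnv had 62.5 CPM of Lars2, each inside the high PBDE range. For Hist1h2ap the groups overlapped, with 9.48 CPM in VCD_Vehicle and 18.4 in VCD_High_PBDE_E2.

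The fold change differed between immune cells and fibroblasts for 8 of 14862 genes (0.0538%) in an edgeR interaction test, 7 of them higher in immune cells (0.0471%) and 1 lower (0.00673%). Before adjustment 696 genes (4.68%) had an edgeR p under 0.05, and DESeq2 called 12 (0.0807%), all higher in immune cells. The interaction was not fitted within the library tag or with the tag as a term. Ccl8, a monocyte chemokine (chr11:82115185-82116799, + strand), was at 95.4, 219 and 281 CPM in the immune cells of the controls and 156, 594 and 744 CPM with high PBDE, but in fibroblasts at 111, 248 and 155 CPM against 59.2, 99.2 and 119 CPM. Every pair was higher in immune cells and lower in fibroblasts, the log2 fold changes were 1.20 (SE 0.18) and -0.92 (SE 0.18), and their difference was 2.08 (SE 0.23, edgeR adjusted p = 0.0203). VCD_Vehicle_NormEnv and VCD_E2_ICI had 49.5 and 31.8 CPM in immune cells and 71.1 and 64.2 in fibroblasts, so the immune side stood apart from them and the fibroblast side did not. In the macrophage gate Ccl8 was at 625, 750 and 1366 CPM against 971, 2873 and 2052 CPM (edgeR adjusted p = 0.123). Cxcl10 and Ifit3 differed by 1.71 (SE 0.22) and 1.32 (SE 0.17), both with an edgeR adjusted p of 0.0255. In immune cells Cxcl10 was at 51.7, 58.4 and 85.3 CPM against 61.9, 153 and 86.4 CPM and Ifit3 at 17.4 to 35.4 CPM against 26.0 to 36.4, and their lower level in fibroblasts is given above.

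Sox4, a factor of progenitor cells, differed by 2.03 (SE 0.26, edgeR adjusted p = 0.0255) and stood in immune cells at 2.37, 1.49 and 3.08 CPM in the controls and 13.2, 6.52 and 15.0 CPM with high PBDE. These values came from 9, 8 and 27 UMIs and 32, 19 and 42 UMIs, with 3.56 CPM in VCD_Vehicle_NormEnv and 5.08 in VCD_E2_ICI. Sox4 was far more abundant in the fibroblasts, at 54.3 to 84.9 CPM in the controls and 82.96 to 99.45 with high PBDE. With up to 10% mitochondrial UMIs allowed, the difference of Sox4 was 0.82 (edgeR adjusted p = 0.505). Tmem88, a membrane inhibitor of Wnt signalling, was at 22.4, 46.5 and 28.7 CPM against 47.5, 50.8 and 60.7 CPM in immune cells and at 20.1 to 32.1 CPM against 11.8 to 18.0 in fibroblasts. Its difference was 1.62 (SE 0.19, edgeR adjusted p = 0.0203). Mir155hg, the host transcript of a microRNA of activated leukocytes, differed by 1.69 (SE 0.20, edgeR adjusted p = 0.0203), at 26.9 to 39.8 CPM against 48.9 to 57.3 in immune cells and 2.78 to 4.82 CPM against 1.42 to 2.11 in fibroblasts, while VCD_E2_ICI had 55.6 CPM in immune cells. For Aldh1a2, which makes retinoic acid, the difference of 3.83 (SE 0.45) came from the fibroblasts, with 312 UMIs in VCD_E2_P4, 22 or fewer in the other controls and 6 or fewer with high PBDE. For Adamts8, a metalloprotease, 142 of the UMIs in immune cells of the controls came from 1 cell of VCD_E2, and the high PBDE immune sums held none. The number of genes called was 0 without VCD_E2_P4 or without VCD_High_PBDE_E2_P4, 156 without VCD_E2 and 160 without VCD_High_PBDE_E2. No gene passed edgeR with at least 50 UMIs required in 3 libraries.

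**Figure D5:**
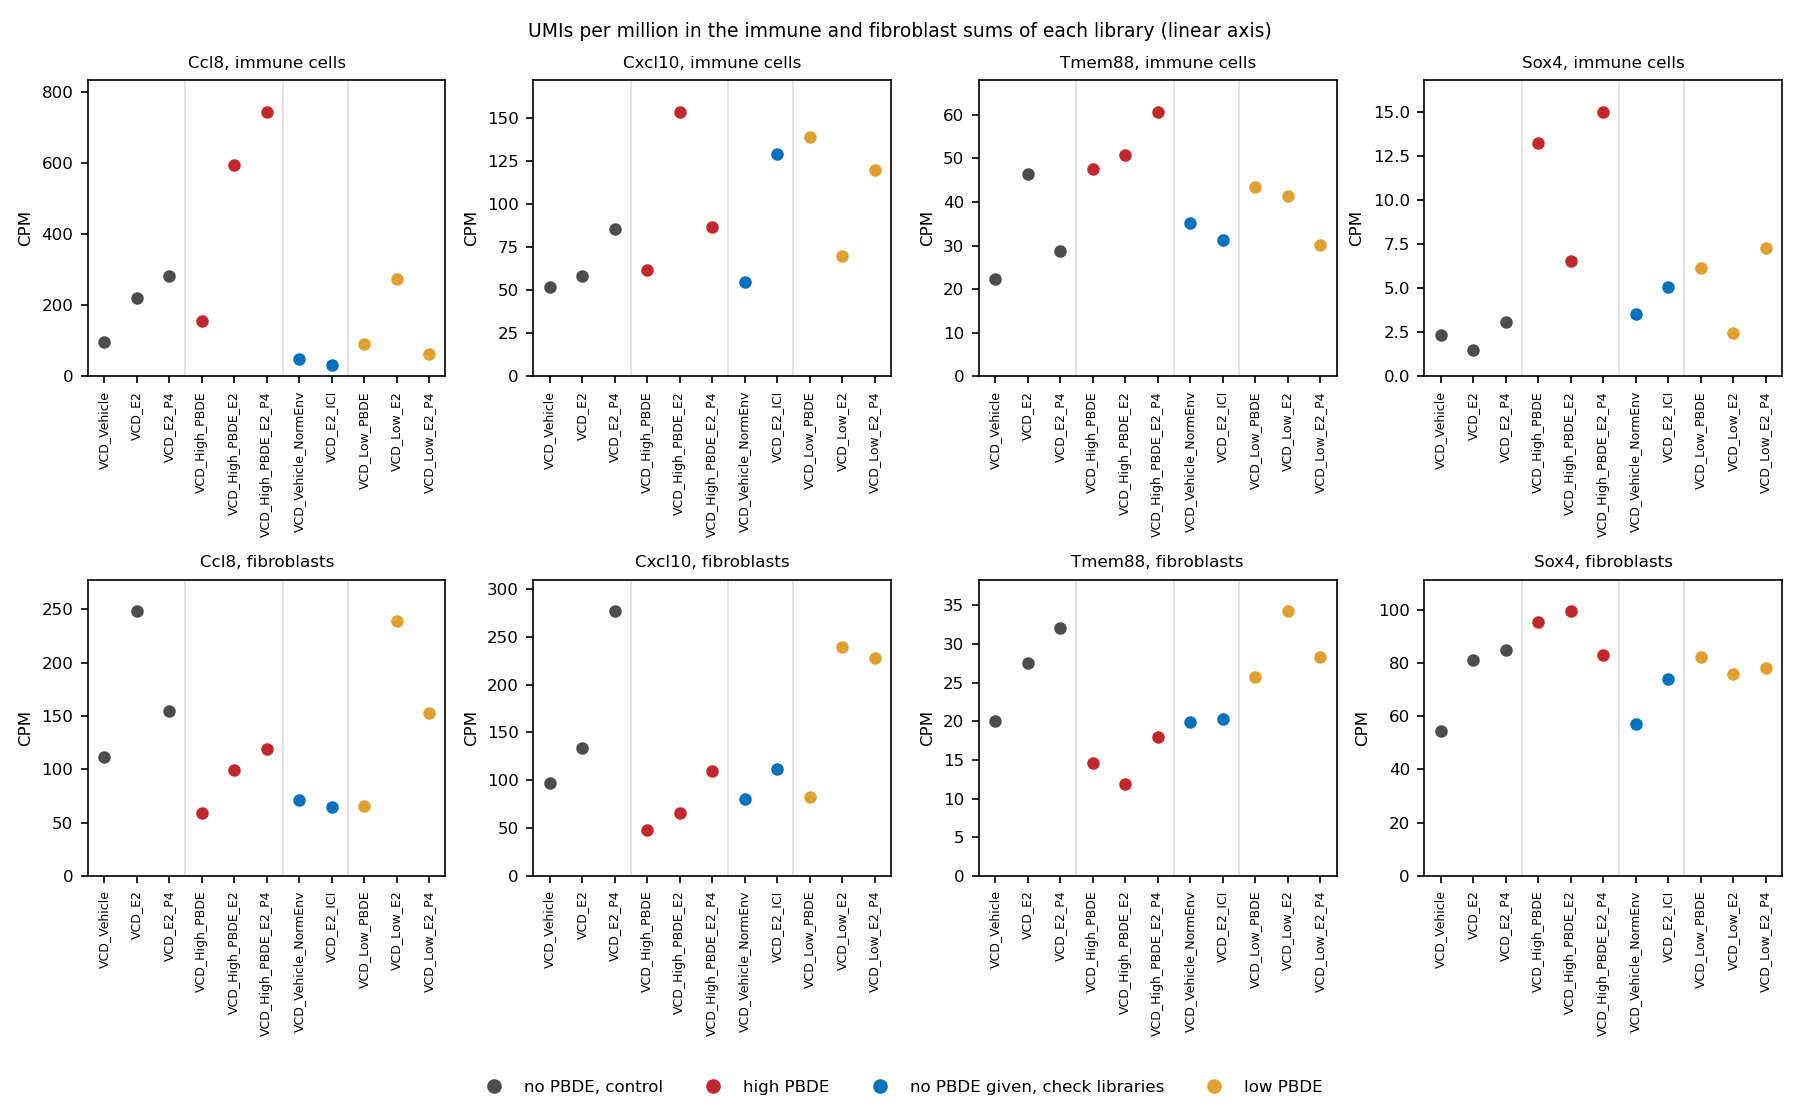
Level of Ccl8, Cxcl10, Tmem88 and Sox4 in the immune sums (upper row) and the fibroblast sums (lower row) of each library, in CPM on linear axes that start at 0. Each point is 1 library, coloured by PBDE dose. In immune cells Ccl8 reaches 594 and 744 CPM with high PBDE and hormone, while in fibroblasts the high PBDE libraries lie at 59.2 to 119 CPM.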

How the data were processed

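Libraries were 10x Genomics 3′ single-cell RNA-seq of dissociated mammary glands, from which lymph nodes, red cells, dead cells and large cells such as mature adipocytes had been removed. For each library the authors deposited a filtered matrix of raw UMI counts, genes by barcodes, without normalization. The submitters' processing notes name Cell Ranger 3.1.0 and mm10.

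A barcode needed 500 or more genes, 1000 or more UMIs and no more than 5% mitochondrial UMIs. No doublet caller was run. UMIs were summed per library over each class. T cells had at least 2 UMIs of Cd3d, Cd3e and Cd3g, macrophages at least 5 of C1qa, C1qb and C1qc, and B cells at least 3 of Cd79a, Cd79b and Ms4a1. The sums were tested with edgeR 4.0.16 in R 4.3.3 (filterByExpr, TMM, quasi-likelihood, hormone and PBDE as terms) and Benjamini-Hochberg adjustment at 0.05, with DESeq2 1.42.0 as an alternative. Each group was 1 library, so the 3 hormone-matched pairs served as replicates, and p-values measure only the spread between these libraries, which may be technical. The difference between classes was tested as an interaction over both sums of the 6 libraries. The tests were also tried on simulated data with known fold changes, at the means, sizes and common spread of the real sums. Intervals of shares are exact (Clopper-Pearson) at 95% and cover counting error only.

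Genes were named by rule: per class, called genes that held against both check libraries with a mean of at least 10 CPM (up to 10 per direction), up to 5 per direction of the other called genes, of each list the called members or, with none called, the 2 with the highest mean CPM, the 5 lowest p values of the interaction, and cell type markers that moved with the groups. Other genes, of the lists or outside them, were named after their values were seen, and some genes that met these rules are not reported here. The members and lists were chosen with earlier results of these data known. Alternatives were another scaling, other count filters, no block, other sets of libraries, the library tag, the mitochondrial limit, stricter gates and the removal of each library in turn. The fit with the tag as a term held the controls, the high and low PBDE libraries and VCD_Vehicle_NormEnv, so its values also depend on the low PBDE libraries. Removing shared barcodes was added after the data were seen.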

Additional observations from a re-analysis of the deposited data

Results flagged for a closer look

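The fold change of high PBDE libraries against controls differed between immune cells and fibroblasts for 8 genes (edgeR interaction test, Benjamini-Hochberg adjustment). Differences are given as the log2 fold change in immune cells minus that in fibroblasts. This test was not run within the library tag or with the tag as a term, so tag and dose cannot be told apart in it. For Ccl8 the difference was 2.08 (adjusted p = 0.0203), and every hormone pair was higher in immune cells and lower in fibroblasts. Against the check libraries its immune side stood apart and its fibroblast side did not. Tmem88 differed by 1.62 and Mir155hg by 1.69, also with every pair higher in immune cells and lower in fibroblasts. In VCD_Vehicle_NormEnv and VCD_E2_ICI, Tmem88 was at 35.3 and 31.2 CPM in immune cells and 19.9 and 20.3 CPM in fibroblasts. Mir155hg was at 55.6 CPM in immune cells of VCD_E2_ICI and 1.51 CPM in fibroblasts of VCD_Vehicle_NormEnv, each inside the high PBDE range. Cxcl10 differed by 1.71 and Ifit3 by 1.32, where the fibroblasts were lower in every pair and the immune values overlapped between the doses. Sox4 differed by 2.03, on at most 42 UMIs per immune sum, and did not pass with the wider mitochondrial limit. Aldh1a2 differed by 3.83, with 312 UMIs in the fibroblasts of VCD_E2_P4 and 22 or fewer in every other fibroblast sum of the test. Adamts8 differed by -12.04, a fitted value that depends on the prior count and is no bound, from 142 UMIs in 1 immune cell of VCD_E2, and its adjusted p in DESeq2 was 1.00. The adjusted p of Ccl8 was 0.341 without VCD_E2_P4 and 0.127 without VCD_High_PBDE_E2_P4, and in both cases 0 genes passed, with 405 and 433 genes at an unadjusted p under 0.05. The differences of the next 2 genes, Gas6 and Ccl7, were 1.19 (adjusted p = 0.0632) and 1.17 (adjusted p = 0.0672).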

How the results depend on the processing

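In immune cells, where edgeR called 0 genes, DESeq2 called 14, and edgeR called 19 without a filter on low counts, 1 without the hormone block, 1 with the low PBDE libraries added (9 libraries), 6 with the library tag as a term, 6 with the mitochondrial limit at 10%, 4 with a stricter gate, 12 in the macrophage gate, 13 in the T cell gate, 1 outside the gates, and 0 to 30 with 1 library left out. In fibroblasts, where it called 2, DESeq2 called 494, and edgeR called 52 without a filter, 1 without the block, 37 with 9 libraries, 1 in cells with at least 2 UMIs of Dpp4, and 0 to 32 with 1 library left out. It called 0 fibroblast genes within 1 library tag (757 at an unadjusted p under 0.05), 0 against all 5 VCD libraries without PBDE (1310) and 0 with the tag as a term (2259). The cause of these differences was not tested. For the difference between classes, with 8 genes called, the count was 0 with at least 50 UMIs required in 3 libraries (654 at an unadjusted p under 0.05), 15 with the mitochondrial limit at 10%, and 0 to 160 with 1 library left out. In the sums over whole classes, the called genes that held against all 5 VCD libraries without PBDE numbered 1, and 6 with the limit at 10%. Calls in the T cell and macrophage gates are not in this count. In the T cell gate some held too, such as Cd74 and Il13. In the macrophage gate Mmp12 was the only called gene that held. Its 11.4 CPM in VCD_Vehicle came from 6 UMIs in 1 cell. Leaving out VCD_E2, VCD_E2_P4, VCD_High_PBDE_E2 or VCD_High_PBDE_E2_P4 left 0 called fibroblast genes. Of 3481 values for 173 genes under these alternatives 3010 kept their side of the threshold and size, 291 moved beyond the spread between pairs, 134 passed the threshold where they had not before, 46 no longer passed, and 279 values in 87 genes had the other sign without being called.

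The immune sums held 2422067 to 2914349 UMIs with high PBDE and 3793899 to 8776331 in the controls, and the T cell and macrophage gates are parts of these. The tag and the high dose cannot be told apart in the 6 libraries, and the check libraries, which share the tag, differ from the controls in ICI or, for VCD_Vehicle_NormEnv, in a condition that the label does not explain.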
